A study of Mus musculus with 5 samples.

Results

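The genes described here are 39 genes of fatty acid and triglyceride metabolism, taken by symbol from the 24527 genes of a count table of mouse prostate tumors, and all 39 were present and tested. They were chosen by function and fall into 9 genes of fatty acid synthesis, 5 lipogenic and adipogenic regulators, 7 genes of triglyceride synthesis, 11 genes of fatty acid uptake, binding, activation and release, and 7 genes of mitochondrial beta-oxidation. From textbook knowledge of where each gene is used, 14 of them were set apart as fat-enriched and the other 25 as ubiquitous. This split was made with earlier results of these data known. The samples are prostate tumors of TripleTg mice measured by bulk RNA-seq, 3 from castrated and 2 from intact animals, 1 mouse per sample, so that tumors can be compared with and without testicular androgen. All 5 mice, of mixed C57BL/6 and C3H SCID background, carried hHGFtg, a human HGF transgene active in all tissues, H11 hMET/+, a human MET transgene behind a floxed stop, Ctnnb1 L(Ex3)/+, a β-catenin allele whose exon 3 is removed by Cre so that the protein is stabilized, and PB Cre4, a Cre driven by the probasin promoter in prostate epithelium. Mice of the castrated group had lost the testes at 4 months and the intact mice were matched for age and genotype, with tissue taken at 8 months. MET and stabilized β-catenin are thus switched on only in Cre-expressing epithelium, while the RNA comes from whole tissue with stroma, immune cells and any fat still attached. The libraries of castrated replicates 1, 2 and 3 held 28015507, 18951782 and 20492061 counts, and those of intact replicates 1 and 2 held 21560355 and 22853501. Values are given in this order of samples throughout.

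Fatty acids are built in the cytosol from citrate-derived acetyl-CoA, then desaturated and elongated, and are stored as triglyceride on a glycerol backbone. In the reverse direction they are released from lipoproteins or stores, taken up, joined to coenzyme A, carried into mitochondria as carnitine esters and shortened by beta-oxidation. Most tissues use the core enzymes, whereas adipocytes add genes for triglyceride storage and glycerol supply under the control of PPARγ and C/EBPα. The prostate lies next to fat depots, and androgens are known to promote lipogenesis in prostate cancer cells. Macrophages also take up and store lipid and use part of the same uptake machinery.

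Some libraries stood apart. Castrated replicate 3 contained liver transcripts, since Alb, Apoa1, Ttr, Serpina1a and Fgb together took 1.82% of its counts and Alb alone 1.39%. The same 5 genes took 0.00566% of the counts in castrated replicate 1 and less in the other libraries. The summed level of the 10 adipocyte markers was 16.4, 713 and 774 TPM (reads scaled for gene length and library size) in the castrated samples, and 7.74 and 22.4 TPM in the intact samples. Cfd, which encodes the adipokine adipsin and was the most abundant of them, had a normalized read count of 1.68, 150, 169, 0 and 0 CPM (counts scaled to library size) in that order, and Adipoq, which encodes adiponectin, had 0.523, 68.8, 68.3, 0 and 0.093 CPM. Of the 10 adipocyte markers, 4 had no count in each intact library and 1, Lep, had none in castrated replicate 1. Most of their summed level in both intact samples and in castrated replicate 1 came from Lipe, a lipase gene used by many tissues. Lipe had 9.85, 35.7 and 35.1 TPM in castrated and 7.36 and 21.8 TPM in intact samples. The summed level of the 8 macrophage markers was 4825, 14002, 5202, 1970 and 2464 TPM, with Lyz2 the most abundant and none of the 8 at 0 in any library. Of the epithelial markers Epcam, Cdh1, Krt8 and Krt18, each was at 511 CPM or more in all 5 libraries, so the epithelial genes of the labelled tissue were present throughout. Pbsn, the androgen-regulated gene whose promoter drives Cre, had 5.21 CPM in intact replicate 2 and under 1 CPM elsewhere, with 0 in intact replicate 1. Hence intact replicate 1 had Pbsn at the level of the castrated samples. In bulk tissue, fewer cells of a type and less RNA per cell cannot be told apart, and the part that fat, macrophage or liver RNA played in the lipid gene differences was not tested.

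**Figure D1:**
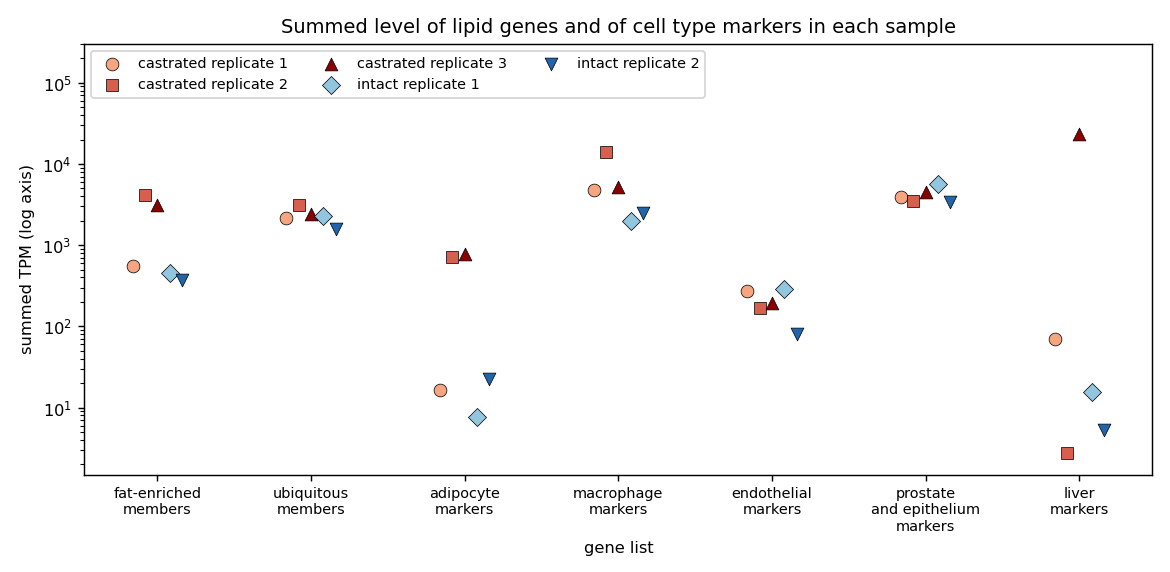
Summed TPM of the fat-enriched and ubiquitous lipid genes and of 5 lists of cell type markers in each of the 5 samples, on a log axis, each point being 1 sample. Castrated replicates 2 and 3 are high for fat-enriched members and adipocyte markers, castrated replicate 2 is highest for macrophage markers, and castrated replicate 3 alone is high for liver markers, at 23346 TPM.

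No lipid gene passed edgeR's quasi-likelihood test of castrated against intact samples after adjustment over all genes. The 5 members with the largest fold changes, Pck1, Aqp7, Cd36, Thrsp and Lpl, were fat-enriched genes of uptake, storage and transcriptional control. Of these, Pck1, Aqp7 and Thrsp exceeded 1 CPM only in castrated samples and so had to be higher there to be tested. In edgeR's quasi-likelihood F-test, with p-values adjusted by Benjamini-Hochberg, 0 of the 39 members passed an adjusted p of 0.05 with an absolute log2 fold change above 1, against a background of 0% of all 14612 genes tested, which are those above 1 CPM in 2 or more samples. DESeq2 called 9 of the members by the same thresholds, against 989 genes in all, and edgeR's likelihood ratio test called 5, against 369. The lowest adjusted p of any member was 0.289, for Mgll, and this was also the lowest of all genes. At an unadjusted p under 0.05 with the same fold change threshold, 10 members were higher in castrated samples, or 25.6%, against 7.66% of all genes tested. These were Acacb, Scd1, Mlxipl, Thrsp, Cebpa, Dgat2, Pck1, Cd36, Acsl1 and Mgll. No member was lower by that rule, against 3.26% of all genes. In 13 members every castrated sample lay above both intact samples, or 33.3% against 17.0% of all genes, and in 1 member, Srebf1, every castrated sample lay below both intact samples, against 16.1% of all genes. The fitted log2 fold change was above 0 in 30 members and below 0 in 9, with a median of 0.39, where the median of all genes tested was -0.03. The count of 10 went down to 7 without castrated replicate 3 and to 7 without castrated replicate 2, against 4.09% and 4.50% of all genes, and to 6 without intact replicate 1, against 11.0%. Without intact replicate 2 it was 3, against 6.34% of all genes, these being Lpl, Cd36 and Mgll.

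**Figure D2:**
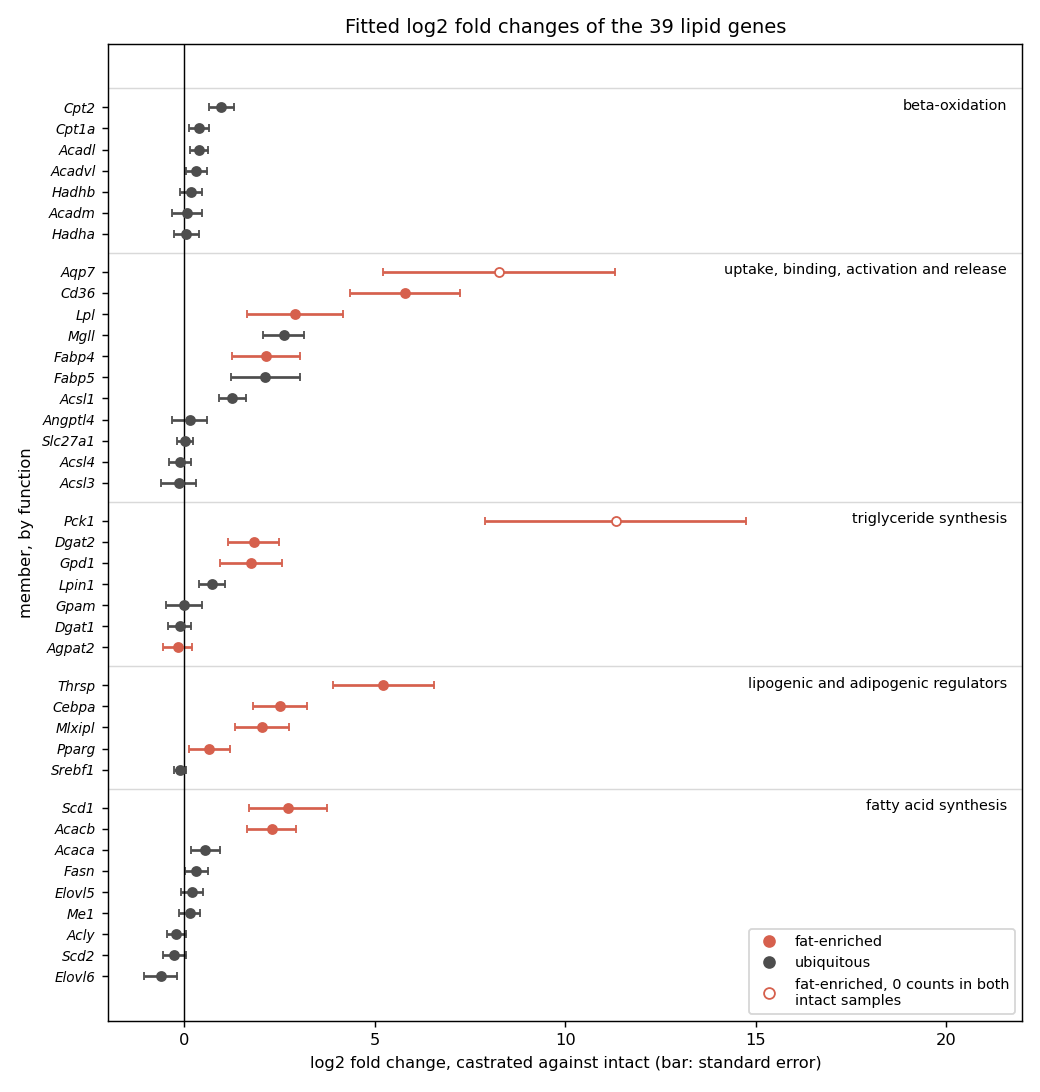
Fitted log2 fold change, castrated against intact, of each of the 39 lipid genes with its standard error, grouped by function and colored by fat-enriched or ubiquitous. The long bars to the right belong to fat-enriched genes of storage, uptake and control, the beta-oxidation genes lie between 0.05 and 0.97, and open symbols mark Pck1 and Aqp7, whose fitted values have no bound because both intact samples had 0 counts.

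Among the synthesis enzymes, the desaturase Scd1 and the carboxylase Acacb were the only members past the unadjusted rule, and the groups overlapped in all but Acacb. Scd1, which encodes the stearoyl-CoA desaturase that puts the first double bond into saturated fatty acids, lies at chr19:44394450-44407709 (mm10, minus strand). Its normalized read counts were 283, 1722 and 2535 CPM in castrated and 315 and 143 CPM in intact samples. Castrated replicates 2 and 3 were several times above every other sample, whereas castrated replicate 1 lay between the intact samples, so the groups overlapped. The log2 fold change of Scd1 was 2.72 with a standard error of 1.02, with an unadjusted p of 0.041 and an adjusted p of 0.322 (edgeR quasi-likelihood F-test, Benjamini-Hochberg). Its neighbor on the same chromosome, the paralog Scd2 at chr19:44293676-44306862, had 853, 988 and 859 CPM in castrated and 1246 and 915 CPM in intact samples, with overlapping groups and a log2 fold change of -0.26 (SE 0.31). Scd2 was thus at a similar level in each library while Scd1 ranged widely. How the counting treated reads that fit both paralogs is not stated, so the split between Scd1 and Scd2 carries that uncertainty.

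Acacb, the carboxylase of the mitochondrial surface whose malonyl-CoA restrains fatty acid import, was low, at 5.27, 9.44 and 16.5 CPM in castrated and 2.69 and 1.53 CPM in intact samples. Each castrated sample lay above both intact samples, and the log2 fold change was 2.29 (SE 0.64) with an unadjusted p of 0.014 and an adjusted p of 0.290 (edgeR quasi-likelihood F-test, Benjamini-Hochberg). The cytosolic carboxylase Acaca, which makes malonyl-CoA for synthesis, had a log2 fold change of 0.55 (SE 0.38) with overlapping groups. ATP citrate lyase, Acly, which supplies cytosolic acetyl-CoA, had 287, 293 and 215 CPM in castrated and 348 and 268 CPM in intact samples, and a log2 fold change of -0.22 (SE 0.25). Fatty acid synthase, Fasn, had 221, 356 and 226 CPM in castrated and 249 and 184 CPM in intact samples, and a log2 fold change of 0.31 (SE 0.31). For both enzymes the ranges of the 2 groups overlapped and the differences were within about 1 standard error. The log2 fold changes of the elongases Elovl5 and Elovl6 were 0.20 and -0.63, and that of the malic enzyme Me1, a source of NADPH, was 0.13. Elovl6 and Me1 each overlap a gene on the opposite strand with at most 7 counts in any library. Over the 9 synthesis genes the median log2 fold change was 0.20. In this class 2 genes were past the unadjusted rule, or 22.2% against 7.66% of all genes tested. In 1, Acacb, every castrated sample lay above both intact samples, or 11.1% against 17.0% of all genes.

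Of the 5 regulators, Thrsp, Cebpa and Mlxipl were past the unadjusted rule, or 60% against 7.66% of all genes tested. Pparg and Srebf1 were not past it. The same 3 regulators had every castrated sample above both intact samples, or 60% against 17.0% of all genes. Thrsp, a nuclear protein of lipogenic tissues (chr7:97412933-97417550, minus strand), had 1.99, 24.1 and 28.2 CPM in castrated and 0.583 and 0.372 CPM in intact samples. All castrated samples were above the intact ones, but castrated replicate 1 was far below the other two. Its log2 fold change was 5.22 (SE 1.34), with an unadjusted p of 0.0102 and an adjusted p of 0.290 (edgeR quasi-likelihood F-test, Benjamini-Hochberg), and it passed the filter on low counts only through castrated samples. Cebpa, which encodes C/EBPα (chr7:35119293-35121931, plus strand), had 23.8, 112 and 97.9 CPM in castrated and 12.01 and 15.4 CPM in intact samples, again without overlap. The log2 fold change of Cebpa was 2.50 (SE 0.71). Mlxipl, the gene of the glucose-sensing factor ChREBP, had 1.85, 3.59 and 5.85 CPM in castrated and 1.21 and 0.604 CPM in intact samples, with a log2 fold change of 2.04 (SE 0.71). All 3 of these regulators were past the unadjusted rule, and Thrsp and Mlxipl were among the 4 members that did not exceed 1 CPM in every sample.

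Pparg, which encodes PPARγ, the central factor of adipocyte differentiation, had 9.49, 24.6 and 21.2 CPM in castrated and 15.6 and 7.72 CPM in intact samples. Its groups overlapped because castrated replicate 1 lay below intact replicate 1, and its log2 fold change was 0.66 (SE 0.54). Srebf1, which encodes the sterol-sensitive activator of the synthesis enzymes, had 94.5, 104 and 103 CPM in castrated and 107 and 110 CPM in intact samples, with a log2 fold change of -0.11 (SE 0.16). Although its groups did not overlap, its castrated mean of 100.3 ± 5.04 CPM (SD, n = 3) differed little from the intact mean of 108.5 ± 2.61 CPM (SD, n = 2), and Srebf1 shares its locus with Rai1 on the opposite strand, whose reads cannot be told apart from its own if counting ignored strand. The median log2 fold change of the 5 regulators was 2.04, and it was 0.66 when only the 3 regulators above 1 CPM in all 5 samples were kept.

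Of the 7 genes of triglyceride synthesis, Pck1 and Dgat2 were past the unadjusted rule, or 28.6% against 7.66% of all genes tested. In Pck1, Dgat2 and Lpin1 every castrated sample lay above both intact samples, or 42.9% against 17.0% of all genes. Pck1, whose enzyme phosphoenolpyruvate carboxykinase supplies glycerol 3-phosphate in adipocytes (chr2:173153073-173159274, plus strand), had 0.209, 20.6 and 22.1 CPM in the castrated samples and no count in either intact sample. In castrated replicate 1 this rested on 6 counts, against 385 and 453 counts in replicates 2 and 3. Against a floor of 3 counts in each intact library, the castrated mean was at least 104-fold higher. That mean came almost wholly from castrated replicates 2 and 3, and without either of them Pck1 did not pass the filter. Dgat2, the acyltransferase that completes triglyceride in storage tissue (chr7:99153663-99182713, minus strand), had 12, 44.7 and 49.99 CPM in castrated and 11.96 and 8.18 CPM in intact samples. The log2 fold change of Dgat2 was 1.82 (SE 0.67), and castrated replicate 1 was nearly equal to intact replicate 1. Gpd1, the glycerol 3-phosphate dehydrogenase, had 12.2, 71.0 and 73.0 CPM in castrated and 19.8 and 11.2 CPM in intact samples, with overlapping groups, a log2 fold change of 1.75 (SE 0.82) and an unadjusted p of 0.083 by edgeR's quasi-likelihood test. An antisense gene that overlaps Gpd1 had 2 to 10 counts per library.

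The remaining 4 genes of triglyceride synthesis did not pass the unadjusted rule. Agpat2, the acyltransferase of the second acylation step and counted as fat-enriched because its loss causes lipodystrophy, had 50.1, 45.1 and 40.5 CPM in castrated and 71.4 and 30.6 CPM in intact samples, with a log2 fold change of -0.17 (SE 0.38). It was the only fat-enriched member with a fold change below 0, and the intact samples lay on either side of all castrated ones. The phosphatidate phosphatase Lpin1 had 29.1, 47.8 and 60.4 CPM in castrated and 28.1 and 27.4 CPM in intact samples, without overlap, and a log2 fold change of 0.72 (SE 0.35). Gpam, which adds the first acyl chain, and Dgat1, the general counterpart of Dgat2, had log2 fold changes of -0.005 and -0.13. For the 7 genes together the median log2 fold change was 0.72, with 2 past the unadjusted rule, Dgat2 and Pck1. That share was 28.6%, against 7.66% of all genes tested. Pck1 exceeded 1 CPM only in castrated samples and so had to be higher there to be tested.

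Of the 11 genes of uptake, binding, activation and release, 3, Cd36, Acsl1 and Mgll, were past the unadjusted rule. Their share was 27.3%, against 7.66% of all genes tested. With Aqp7, 4 had every castrated sample above both intact samples, or 36.4% against 17.0% of all genes. Aqp7 passed the filter only through castrated samples. Log2 fold changes ran from -0.15 to 5.79, leaving out Aqp7, which had no count in either intact sample. Cd36, the fatty acid translocase of adipocytes, macrophages and capillaries (chr5:17781690-17888959, minus strand), had 112, 1434 and 581 CPM in castrated and 4.71 and 20.9 CPM in intact samples. Every castrated sample, replicate 1 included, was several times above both intact samples. The log2 fold change of Cd36 was 5.79 (SE 1.45), with an unadjusted p of 0.0093 and an adjusted p of 0.290 (edgeR quasi-likelihood F-test, Benjamini-Hochberg). Lipoprotein lipase, Lpl (chr8:68880555-68906932, plus strand), which frees fatty acids from circulating triglyceride, had 153, 1704 and 921 CPM in castrated and 37.3 and 212 CPM in intact samples. Castrated replicate 1 lay below intact replicate 2, so the groups overlapped, and the log2 fold change of Lpl was 2.89 (SE 1.26) with an unadjusted p of 0.066 by edgeR's quasi-likelihood test. Its extracellular inhibitor Angptl4 had a log2 fold change of 0.14 (SE 0.46).

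Fabp4 and Fabp5, which encode cytosolic fatty acid binding proteins and lie close together on chromosome 3, were both high in castrated replicates 2 and 3. Fabp4, the binding protein of adipocytes and macrophages, had 37.0, 287 and 193 CPM in castrated and 26.0 and 52.0 CPM in intact samples, with a log2 fold change of 2.15 (SE 0.90). Fabp5, the epidermal form that macrophages also express, had 50.7, 437 and 148 CPM in castrated and 44.6 and 52.6 CPM in intact samples, with a log2 fold change of 2.12 (SE 0.91). In both genes castrated replicate 1 fell between the intact samples, so the groups overlapped. Aqp7, the glycerol channel of adipocytes (chr4:41033074-41048136, minus strand), had 0.035, 2.52 and 2.63 CPM in castrated samples and no count in intact samples, which against the floor of 3 counts in each intact library made the castrated mean at least 12.6-fold higher. Its value in castrated replicate 1 was 1 count.

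Release and activation of fatty acids held the 2 ubiquitous members past the unadjusted rule. Mgll, the monoglyceride lipase that completes triglyceride breakdown (chr6:88724412-88828360, plus strand), had 41.9, 106 and 110.5 CPM in castrated and 18.0 and 10.3 CPM in intact samples. No castrated sample came near the intact ones, and the log2 fold change of Mgll was 2.60 (SE 0.55), with an unadjusted p of 0.0044 and an adjusted p of 0.289 (edgeR quasi-likelihood F-test, Benjamini-Hochberg). Acsl1 (chr8:46471037-46536051, plus strand), the long-chain acyl-CoA synthetase of fat, heart and liver, was counted as ubiquitous although fat is among these tissues. It had 71.9, 152 and 122 CPM in castrated and 50.5 and 46.1 CPM in intact samples, again without overlap, and a log2 fold change of 1.26 (SE 0.35). The synthetases Acsl3 and Acsl4 had log2 fold changes of -0.15 and -0.12, and the transporter Slc27a1 of 0.01, all with overlapping groups. Acsl3 overlaps Utp14b on the same strand, so its counts are uncertain. Over the 11 genes the median log2 fold change was 2.12. Without castrated replicate 3 or castrated replicate 2 Aqp7 was no longer tested, and the median of the other 10 genes, 1.69 with all samples, was 1.64 and 1.03.

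Of the 7 beta-oxidation genes, 0 passed the unadjusted rule by edgeR's quasi-likelihood test and 0 the adjusted one by that test or DESeq2, although all 7 had a fold change above 0. The share of all genes tested past the unadjusted rule as higher was 7.66%. Cpt2, the inner-membrane carnitine palmitoyltransferase (chr4:107903982-107923589, minus strand), had 61.3, 33.5 and 37.2 CPM in castrated and 22.3 and 22.5 CPM in intact samples. Here castrated replicate 1 was the highest sample, the reverse of its place among the fat-enriched genes, and the castrated mean was 44.0 ± 15.1 CPM (SD, n = 3). The log2 fold change of Cpt2 was 0.97 (SE 0.33), just under the threshold of 1, with an unadjusted p of 0.030 and an adjusted p of 0.309 (edgeR quasi-likelihood F-test, Benjamini-Hochberg). Cpt2 was past the unadjusted rule with library size scaling (log2 fold change 1.003), without castrated replicate 2 (1.14) and without castrated replicate 3 (1.09), and is 1 of the 7 members counted in each of the fits without these replicates. Without castrated replicate 1, its highest sample, the log2 fold change was 0.66 and it was not past the rule. Cpt1a, the outer-membrane transferase that controls entry into mitochondria, had 278, 188 and 224 CPM in castrated and 203 and 149 CPM in intact samples, with a log2 fold change of 0.39 (SE 0.26). The long-chain dehydrogenase Acadl had 133, 127 and 159 CPM in castrated and 126 and 87.4 CPM in intact samples, without overlap, and a log2 fold change of 0.39 (SE 0.24). Hadha, the large subunit of the trifunctional protein, had 173, 158 and 205 CPM in castrated and 119 and 226 CPM in intact samples, with a log2 fold change of 0.05 (SE 0.32). The other subunit Hadhb and the dehydrogenases Acadm and Acadvl had log2 fold changes of 0.17, 0.06 and 0.31. The median of the class was 0.31, and it lay between 0.11 and 0.53 when single samples were left out, both ends coming from the removal of an intact sample.

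Set side by side per gene length, the synthesis sums of the groups overlapped, and whether the oxidation sums did depended on the scale. The summed level of the 9 synthesis genes was 859, 1686 and 1958 TPM in castrated and 1149 and 646 TPM in intact samples, and that of the 7 oxidation genes was 825, 727 and 891 TPM in castrated and 636 and 600 TPM in intact samples. The ratio of synthesis to oxidation was 1.04, 2.32 and 2.20 in castrated and 1.81 and 1.08 in intact samples, so that castrated replicate 1 resembled intact replicate 2. Without Scd1 and Scd2 the synthesis sum was 354, 413 and 376 TPM in castrated and 424 and 279 TPM in intact samples. In TPM the oxidation sum of every castrated sample lay above both intact samples, with castrated replicate 2 nearest to them. In CPM the sums were 912, 767 and 956 in castrated and 661 and 798 in intact samples. On that scale castrated replicate 2 lay below intact replicate 2 and the groups overlapped. TPM and CPM differ both in gene length and in how each library is scaled, and which of these mattered was not tested.

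**Figure D3:**
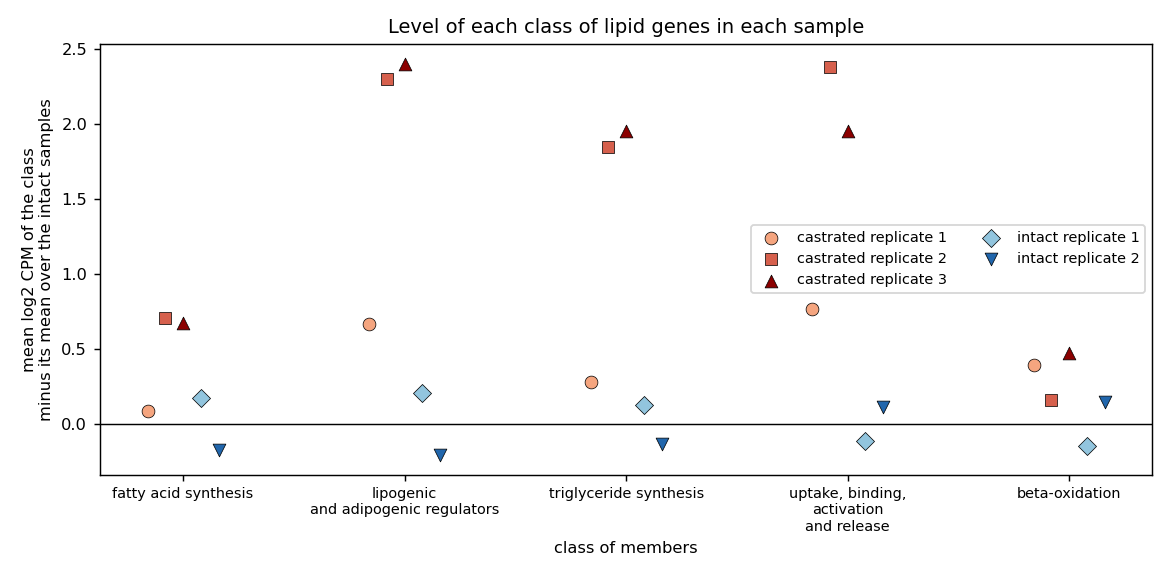
Mean log2 CPM of each functional class of lipid genes in each sample, relative to the mean of the intact samples, each point being 1 sample. Castrated replicates 2 and 3 lie between 1.85 and 2.40 for regulators, triglyceride synthesis and uptake, castrated replicate 1 lies between 0.28 and 0.77 for the same classes, and the beta-oxidation points lie between -0.15 and 0.47.

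Divided by tissue use, the fat-enriched members held most of those past the unadjusted rule. Because the split was made with earlier results of these data known, it is not an independent contrast. Of the 14 fat-enriched genes, 8 were past the unadjusted rule, or 57.1%, and 8 had no overlap between groups, with a median log2 fold change of 2.40. Of the 25 ubiquitous genes, 2 were past the rule, or 8%, and 5 had all castrated samples above both intact samples, with a median of 0.14. The same shares over all genes tested were 7.66% and 17.0%, so that the share of ubiquitous members past the rule was close to the background. The medians were the same with Pck1 and Aqp7 set at their lower bounds. These counts and the median of the fat-enriched genes include Thrsp, Pck1 and Aqp7, which passed the filter only through castrated samples. The summed level of the fat-enriched members was 559, 4092 and 3121 TPM in castrated and 456 and 373 TPM in intact samples, while the ubiquitous members summed to 2183, 3151 and 2448 TPM in castrated and 2258 and 1584 TPM in intact samples. Castrated replicate 1 had a fat-enriched sum only slightly above the intact samples. The adipocyte markers, at 16.4, 713, 774, 7.74 and 22.4 TPM in the same order, had the same 2 high libraries.

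**Figure D4:**
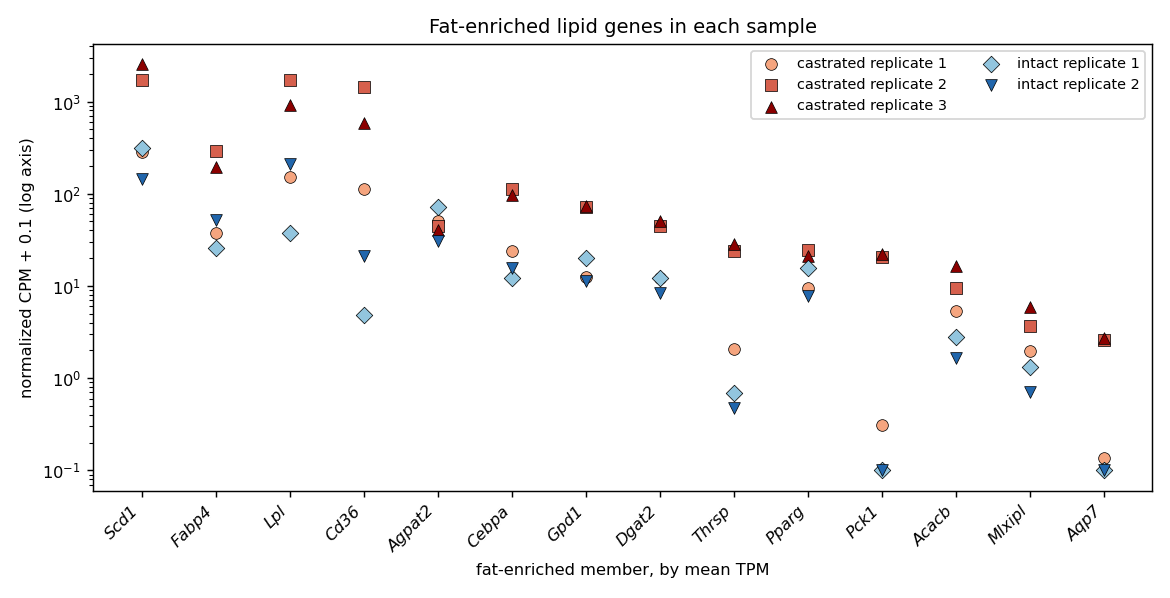
Normalized read count (CPM plus 0.1, log axis) of the 14 fat-enriched genes in each sample, ordered by mean TPM from left to right. Castrated replicates 2 and 3 lie together above the rest for all genes but Agpat2, and castrated replicate 1 lies below them for the same 13 genes and above both intact samples for 8 of the 14.

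The castrated mice also differed among themselves in the fat-enriched genes. Castrated replicate 1 was the lowest castrated sample in 23 of 39 members, among them 13 of the 14 fat-enriched genes and 10 of the 25 ubiquitous ones, where it was the lowest in 38.3% of all genes tested. In 13 members castrated replicates 2 and 3 were both over 2 times castrated replicate 1, against 7.79% of all genes tested, and 11 of these were fat-enriched, the other two being Fabp5 and Mgll. Castrated replicate 1 still lay above both intact samples in 17 members, of which 8 were fat-enriched, while castrated replicates 2 and 3 did so in 23 and 25. The same held for 31.2%, 31.9% and 32.7% of all genes tested in castrated replicates 1, 2 and 3. In correlation of log2 CPM across all genes, which are not independent replicates, castrated replicate 1 was closest to intact replicate 1, at 0.922.

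Castrated replicates 2 and 3 had nearly equal adipocyte marker sums but not the same uptake genes. The ratio of castrated replicate 2 to castrated replicate 3 ranged among the 10 adipocyte markers from 0.57 for Cidec and 0.78 for Plin4, through 0.93 for Plin1 and 1.01 for Adipoq, to 1.54 for Acvr1c and 1.86 for Adrb3. Pck1, Aqp7, Gpd1, Dgat2 and Mgll had ratios between 0.89 and 0.97. Fabp5, Cd36 and Lpl had ratios of 2.94, 2.47 and 1.85, and Fabp4 of 1.48. The macrophage markers Lyz2, C1qb, Cd68, C1qa and Adgre1 had ratios of 2.85, 2.46, 2.37, 2.11 and 1.86, Csf1r and Mrc1 of 1.56 and 1.45, and Cd163 of 0.37. The ranges of the adipocyte and macrophage markers thus overlapped, and Lpl had nearly the same ratio as both Adrb3 and Adgre1. Acacb, Mlxipl and Scd1, with ratios of 0.57, 0.61 and 0.68, were higher in castrated replicate 3, the library with liver transcripts. For all 8 macrophage markers each castrated sample lay above both intact ones, where 17.0% of all genes tested did so. Their log2 fold changes ran from 1.12 to 2.52. The part of macrophages in the levels of Cd36, Lpl, Fabp4 and Fabp5, and of liver RNA in those of Scd1, Acacb and Mlxipl, was not tested.

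**Figure D5:**
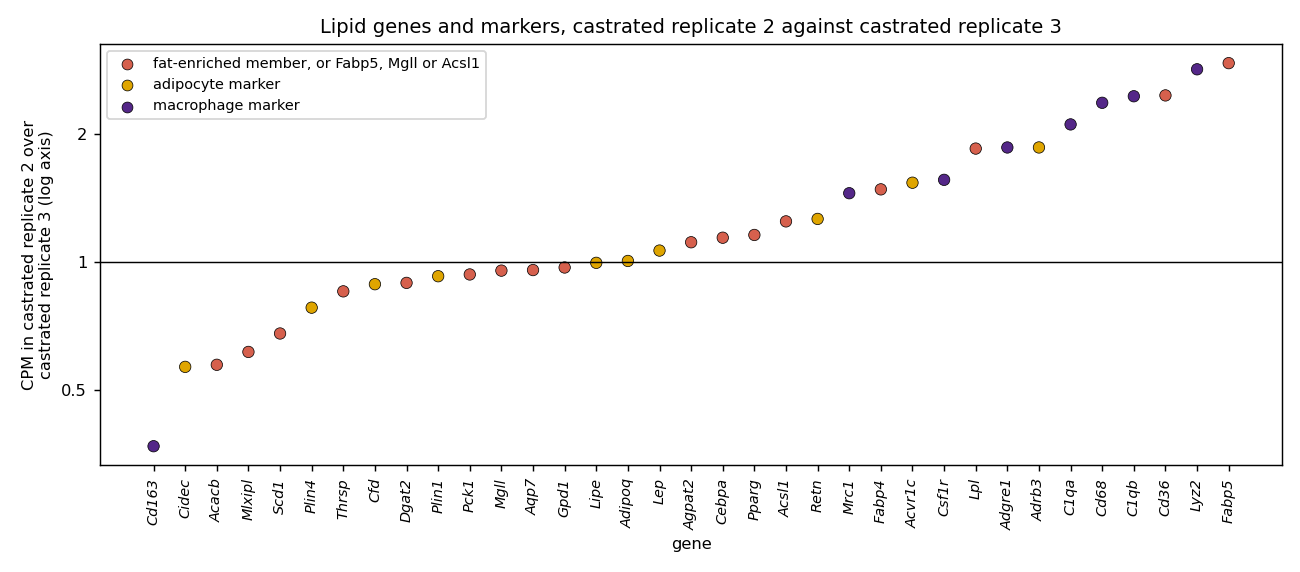
Ratio of the normalized read count in castrated replicate 2 to that in castrated replicate 3 (log axis) for the fat-enriched members, Fabp5, Mgll and Acsl1, the adipocyte markers and the macrophage markers, ordered from low to high. Pck1, Aqp7 and Gpd1 sit near 1, and Fabp5, Cd36 and Lpl sit at the right, while the adipocyte markers spread from 0.57 to 1.86 and the macrophage markers from 0.37 to 2.85.

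Removing castrated replicate 3, the library with liver transcripts, left 6 of the 10 members past the unadjusted rule, with log2 fold changes of 5.93 for Cd36, 4.76 for Thrsp, 2.39 for Mgll, 2.31 for Cebpa, 1.80 for Acacb and 1.22 for Acsl1. Scd1, Mlxipl and Dgat2 no longer passed it, at 2.14, 1.58 and 1.5, and Pck1 was no longer tested. Lpl, which was not past the rule with all samples either, was at 2.91. Without castrated replicate 1, where adipocyte markers were low, 15 members were past the unadjusted rule, against 9.77% of all genes, and the median of the 14 fat-enriched genes was 2.78. Without castrated replicate 3 or castrated replicate 2 Pck1 and Aqp7 were no longer tested, and the median of the other 12, 2.22 with all samples, was 1.93 and 2.10. The fat-enriched count past the rule, 8 with all samples, was 12 without castrated replicate 1, 4 without castrated replicate 2, 4 without castrated replicate 3, 4 without intact replicate 1 and 2 without intact replicate 2. At 5 animals the number past the rule was thus decided by single libraries, and the adjusted p of every member stayed above 0.05 in all 5 of these fits.

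Promoters of the members were examined because PPARγ with its partner RXR, C/EBP factors, ChREBP and SREBP are the known regulators of these genes. RefSeq promoter sequences of the build GRCm38.p6 (the assembly of mm10) were matched for 30 of the 39 members, 9 of them fat-enriched, and not for Angptl4, Dgat1, Dgat2, Fabp4, Fabp5, Gpd1, Lpl, Scd1 and Scd2. Both strands of the 250 bases before each start site were searched. The PPAR and RXR motif, a repeat of AGGTCA with 1 base between the copies and up to 2 mismatches in all, was found for Aqp7 and Cd36 among the members, and in 3.24% of 32851 promoters of the same length. TTGCNNAA, the C/EBP motif, was found for Pparg and in 9.56% of all promoters. CACGTG, the E-box to which ChREBP and SREBP can bind, was found for Elovl5, Mgll, Mlxipl and Slc27a1 and in 6.02% of all promoters. TCACNCCAC, a sterol regulatory element, was found for Acsl1 and Mlxipl and in 1.05%. A gene can have several promoters, and the 30 matched members had 42. The motifs, in the order given, were found in 3, 1, 4 and 2 of these 42 promoters. No match of one motif overlapped a match of another. The promoters of 4 fat-enriched genes with a match are given below 5′ to 3′ on the strand of the gene, with matches in capitals. They were chosen to show where the letters stand in a fatty acid translocase, a glycerol channel and 2 factors that control lipogenic and adipose genes.

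The Aqp7 promoter at chr4:41048137-41048386 (minus strand) ends at the start of the gene in the coordinates used here, although Aqp7 spans it in the GENCODE annotation. It holds the match 56 bases before the start site. A further Aqp7 promoter, not shown, overlaps this stretch and holds another match 101 bases before its own start site. The match shown here is also in its window, 230 bases before that start site. The Cd36 promoter at chr5:17835897-17836146 (minus strand) belongs to a start site inside the Cd36 gene and holds the match 63 bases before it. The Mlxipl promoter at chr5:135089640-135089889 (plus strand) has its E-box 98 bases before the start site, and the Pparg promoter at chr6:115421816-115422065 (plus strand), also within its gene, has C/EBP matches 215 and 16 bases before the start site.
Aqp7: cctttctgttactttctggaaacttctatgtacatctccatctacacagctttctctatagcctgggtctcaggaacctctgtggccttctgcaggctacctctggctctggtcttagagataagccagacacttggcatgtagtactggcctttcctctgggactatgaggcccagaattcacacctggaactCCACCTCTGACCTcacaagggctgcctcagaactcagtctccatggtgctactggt
Cd36: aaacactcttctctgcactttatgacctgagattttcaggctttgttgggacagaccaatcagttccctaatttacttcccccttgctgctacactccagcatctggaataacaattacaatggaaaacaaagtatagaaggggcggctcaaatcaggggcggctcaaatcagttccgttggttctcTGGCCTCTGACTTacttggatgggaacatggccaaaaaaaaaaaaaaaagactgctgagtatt
Mlxipl: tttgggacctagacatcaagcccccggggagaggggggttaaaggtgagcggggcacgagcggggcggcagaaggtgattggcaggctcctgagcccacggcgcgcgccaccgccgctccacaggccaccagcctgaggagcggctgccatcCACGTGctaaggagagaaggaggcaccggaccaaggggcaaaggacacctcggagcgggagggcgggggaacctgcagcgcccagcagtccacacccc
Pparg: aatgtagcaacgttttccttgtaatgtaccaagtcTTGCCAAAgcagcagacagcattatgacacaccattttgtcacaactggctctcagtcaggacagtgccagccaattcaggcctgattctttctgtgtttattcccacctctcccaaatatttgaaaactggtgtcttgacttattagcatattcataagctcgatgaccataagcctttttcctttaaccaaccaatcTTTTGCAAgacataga
Aqp7 and Cd36, the members with a PPAR and RXR match, had castrated means of 1.73 ± 1.47 and 709 ± 670 CPM (SD, n = 3), against 0 and 12.8 ± 11.5 CPM (SD, n = 2) in intact samples. A match of letters is a description and not evidence of binding, and its absence elsewhere says only that these letters are not in the window searched.

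Few genes of the same pathways outside the 39 passed the unadjusted rule, which 7.66% of all genes tested passed as higher and 3.26% as lower. Mecr (log2 fold change 0.90), Cebpb (0.93) and Srebf2 (-0.61) were under its fold change threshold but without overlap between the groups. Their unadjusted p was 0.012, 0.022 and 0.032 by edgeR's quasi-likelihood test. Of 10 further synthesis genes, 9 were tested and 0 passed the unadjusted rule by edgeR's quasi-likelihood test, with a median log2 fold change of 0.26. The front-end desaturases Fads2 and Fads1 had the largest, at 1.59 and 1.22, with all castrated samples above both intact ones. Fads2 had 330, 154 and 249 CPM in castrated and 131 and 31.7 CPM in intact samples, so that, unlike Scd1, it was highest in castrated replicate 1. Of 13 further regulators, 1 was higher and 1 lower by the unadjusted rule, with a median of 0.13. The higher one was Nr1h3, the gene of the oxysterol receptor LXRα, with 8.23, 8.15 and 19.1 CPM in castrated and 2.20 and 3.997 CPM in intact samples and a log2 fold change of 1.93 (SE 0.59). The lower one was Ppargc1a, a coactivator of mitochondrial genes, with 17.7, 12.7 and 11.3 CPM in castrated and 45.4 and 26.3 CPM in intact samples and a log2 fold change of -1.37 (SE 0.35).

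Of 10 further genes of triglyceride synthesis, 8 were tested and 0 passed the unadjusted rule, with a median of 0.21. Pnpla3 and the acyltransferase Gpat3 had the largest log2 fold changes, 1.96 and 1.15. Of 9 further genes of uptake and activation, 1 was higher by the unadjusted rule, the muscle and heart binding protein Fabp3, at 0.349, 1.72 and 1.71 CPM in castrated and 0.179 and 0.093 CPM in intact samples (log2 fold change 3.13, SE 1.05). Fabp3 and Pnpla3 passed the filter only through castrated samples and so had to be higher there. Gpihbp1, which anchors Lpl to the capillary wall, had the largest fold change below 0 in that list, -1.75 (SE 0.81), with 8.48, 3.16 and 3.22 CPM in castrated and 28.0 and 5.58 CPM in intact samples and overlapping groups. The median of this list was -0.23, while the 11 members of the corresponding class had 2.12. Of 16 further oxidation genes, 15 were tested and 0 passed by edgeR's quasi-likelihood test, with a median of 0.22 and Ehhadh and Decr1 at 1.25 and 0.84. The peroxisomal enzyme Ehhadh was highest in castrated replicate 3, at 34.2 CPM against 7.47, 12.01, 6.41 and 8.65 CPM in the other samples, and Ppara, a regulator abundant in liver, was at 13.7 CPM there and under 3 CPM elsewhere.

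Among the cell type lists, few brown fat and skeletal muscle markers passed the filter. The share of all genes tested that were higher by the unadjusted rule was 7.66%, the background for the counts that follow. Of 6 brown fat markers 2 were tested and 0 passed the unadjusted rule, and Ucp1, the defining gene of brown fat, was at 0.349 CPM or less in all samples. Dio2, the thyroid hormone deiodinase on that list, had 55.1, 63.0 and 47.9 CPM in castrated and 6.05 and 29.0 CPM in intact samples, without overlap, and a log2 fold change of 1.66. Of 7 skeletal muscle markers 1 was tested, and it did not pass. Of the 10 adipocyte markers 7 were higher by the unadjusted rule, with a median log2 fold change of 8.92, or 7.52 with Cfd and Lep, which had no count in intact samples, at their lower bounds. All but Lipe exceeded 1 CPM only in castrated samples and so had to be higher there to pass the filter. Lipe, the hormone-sensitive lipase used by many tissues, was the adipocyte marker with the smallest change, with 13.7, 49.1 and 49.3 CPM in castrated and 9.72 and 38.3 CPM in intact samples. Of 8 macrophage markers 7 were higher, with a median of 1.64, of 6 endothelial markers 1 was higher, Tek, with a median of 0.63, and of 8 epithelial markers tested 0 were higher by edgeR's quasi-likelihood test, with a median of -0.31. Of 4 liver markers tested 1, Fgb, was higher by the rule, on the counts of castrated replicate 3, and it passed the filter only through castrated samples.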

How the data were processed

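RNA was extracted from prostate tumor tissue of each mouse. The authors prepared rRNA-depleted libraries, used Trimmomatic 0.39 for trimming of paired-end reads, STAR 2.7.9 for alignment to mm10 and HTSeq 2.0.2 for counting per gene, and the deposited values are raw counts, 1 column per animal and 0 columns unused. Whether counting used strand is not given in the sources used here. The deposited gene length served only for TPM, and coordinates are those of the deposited table.

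Groups followed the labels. In R 4.3.3, genes above 1 CPM in 2 or more samples were fitted in edgeR 4.0.16 (TMM, quasi-likelihood F-test with its current fitting mode), following the filter, test and thresholds of the study, whose methods name TPM as input, with Benjamini-Hochberg adjustment over all 14612 genes tested. Standard errors are log2 fold change over the root of F. CPM are TMM-normalized. Library totals, 18951782 to 28015507 counts, limit precision less than differences between mice (common dispersion 0.238). The floor for a count of 0 was 3 counts per library and covers counting error only. Class levels are means of log2 CPM (prior count 2).

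The members and gene lists were chosen with earlier results of these data known. All 39 members are named. Of the marker genes, 1 is not reported here. Sample values are given for fat-enriched genes and, in each class, for the 3 with the highest TPM and the 2 with the largest fold change, and those of Fasn, Lpin1, Mgll and Acsl1 were added after their values were seen, as were other genes named from the marker and further pathway lists beyond the 2 with the largest fold change. Alternatives were DESeq2 1.42.0, library size scaling, 2 other filters, the replicate block, the likelihood ratio test, leaving out each replicate and, added after seeing the data, edgeR's older quasi-likelihood fit.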

Additional observations from a re-analysis of the deposited data

How the results depend on the processing

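With 5 mice, depth limits only genes of few counts, such as Aqp7 and Pck1, and differences between mice limit the rest. Genes past the adjusted rule numbered 0 by edgeR's quasi-likelihood test (1596 past the unadjusted rule) but 989 by DESeq2 and 369 by the likelihood ratio test, among them 9 and 5 members, and the cause was not tested. Leaving out single replicates gave 0 to 1 such genes, 582 to 1588 genes higher and 247 to 982 lower at the unadjusted p, 3 to 15 members higher and 2 to 12 fat-enriched members higher. Genes lower numbered 740 without a filter, where more genes were tested. Same-numbered castrated and intact mice are different animals, whose deviations from their group means correlated at 0.149 and -0.045. With 2 intact samples, the deviations of intact replicate 1 mirror those of intact replicate 2. These values therefore cannot show whether the numbers pair the mice. The replicate block gave 227 genes lower and 5.12% of genes, 6 members and 5 fat-enriched members higher, and log2 fold changes of opposite sign for Elovl5 (-0.079), Me1 (-0.016), Agpat2 (0.023), Acsl4 (0.040), Acadm (-0.16) and Gpam (0.0079). Gpam was also above 0 by DESeq2 (0.0045), library size scaling (0.055) and the filter in 3 samples (0.0044). The regulator median was 0.66 with genes above CPM 1 in all samples only. The synthesis median was -0.016 in the replicate block. Without single replicates, medians ranged from 1.03 to 2.59 for uptake (10 to 11 genes), 0.11 to 0.53 for beta-oxidation, 0.11 to 0.29 for ubiquitous members and 1.58 to 2.37 for regulators. For synthesis they ranged from 0.020 to 0.33 and for triglyceride synthesis (6 to 7 genes) from 0.22 to 0.96. Small fold changes crossed 0 in the same fits, ranging from -0.55 to 0.90 for Gpam, -0.44 to 0.0016 for Acly, -0.077 to 0.33 for Elovl5, -0.70 to 0.58 for Agpat2, -0.48 to 0.29 for Dgat1, -0.28 to 0.68 for Angptl4, -0.086 to 0.11 for Slc27a1, -0.64 to 0.30 for Acsl3, -0.48 to 0.31 for Acsl4, -0.27 to 0.48 for Acadm, -0.32 to 0.55 for Hadha and -0.16 to 0.60 for Hadhb. No other member changed direction in any alternative.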
